A study of Mus musculus with 4 samples.

Results

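The genes described here are 10 genes that make, feed and switch on the major histocompatibility complex (MHC) class I pathway in the mouse. They were chosen by name: H2-K1, H2-D1, B2m, Tap1, Tap2, Tapbp, Psmb8, Psmb9, Psmb10 and Nlrc5. All 10 were found among the 41029 genes of the expression table, and all 10 were among the 12344 genes that entered the test, those averaging 1 FPKM (fragments per kilobase of gene, scaled to the reads of the library) or more. RNA was sequenced from cultured mesenchymal stem/progenitor cells of bone marrow, precursors of bone, fat and cartilage cells that grow attached to the dish. The cells came from C57BL/6 mice and were grown in MesenCult medium with its supplement. There were 2 libraries from Tet2-/- mice and 2 from wild-type mice, with no treatment named for either. The labels give the genotype without the allele's design, a driver for the deletion, the age of the mice or whether replicates are separate mice, so the p-values measure the spread between these libraries, which may be technical.

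Nearly every nucleated cell displays peptides from its own proteins on MHC class I, a heavy chain paired with beta-2 microglobulin, for inspection by CD8 T cells; natural killer cells respond when it is missing. Proteasomes cut the proteins, the TAP transporter carries the peptides into the endoplasmic reticulum, and tapasin holds empty class I molecules beside TAP until a peptide fits. Interferon raises the whole set, partly through the factor NLRC5, and swaps 3 catalytic subunits of the proteasome for immunoproteasome versions. In mesenchymal stromal cells, class I is carried at rest and is raised by interferon gamma, while class II appears mainly after it.

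Tet2, the cytosine-oxidising enzyme named in the genotype, stood at 11.6 and 9.70 FPKM in the knockout-labelled libraries, against 7.01 and 8.39 FPKM in wild type. Tet2 was thus no lower where the label says knockout (limma adjusted p = 0.329), and a value for the whole gene cannot show the loss of some exons. The libraries are therefore named by their labels, knockout-labelled 1 and 2, and every direction below rests on those labels. Reads over genes came to 15847340 and 21337246 in the knockout-labelled libraries, against 10096878 and 17778152 in wild type. The knockout-labelled libraries stood apart from each other far more than the wild-type ones did: the root mean square SD within a group, on log2(FPKM + 1), was 0.575 for knockout-labelled and 0.136 for wild type. Col1a1, the main collagen chain of bone and a stromal marker, was abundant in all 4, at 2628 and 13294 FPKM in knockout-labelled cells, against 6257 and 5962 FPKM in wild type. Stromal markers differed widely between the knockout-labelled libraries, and 0 of 13 tested passed the adjusted threshold. Of the 13, 3 lay above both wild-type libraries (29.4% of all genes do) and 3 below both (24.8%). Another 3 showed knockout-labelled 1 below and knockout-labelled 2 above them (13.3%). Thy1, Cd44, Ly6a and Col3a1 showed the reverse, with knockout-labelled 1 above and knockout-labelled 2 below both wild-type libraries. Thy1 and Nt5e, surface markers chosen after their values were seen, show the range. Thy1 was 131 and 8.27 FPKM in knockout-labelled libraries, against 14.9 and 16.0 FPKM in wild type, and Nt5e was 9.46 and 61.1 FPKM in knockout-labelled libraries, against 3.28 and 3.13 FPKM in wild type. Cxcl12, a chemokine that retains blood stem cells in their niche, was 43.4 and 46.6 FPKM in knockout-labelled libraries, against 291 and 298 FPKM in wild type (limma adjusted p = 0.0793). The stromal marker Pdgfra was above both wild-type libraries, at 38.8 and 16.0 FPKM in knockout-labelled libraries, against 8.73 and 8.79 FPKM (limma adjusted p = 0.265). Pdgfrb was below both, at 100 and 77.4 FPKM in knockout-labelled libraries, against 148 and 143 FPKM (limma adjusted p = 0.232). Lepr, a marker of marrow stroma, was 0.316 and 2.45 FPKM in knockout-labelled libraries, against 0.0902 and 0.333 FPKM in wild type. Lepr was under the filter and not tested. The part of these differences in the class I values was not tested.

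The promoters of the genes the results turn on are shown first, because the heavy chain genes and B2m are read by a shared set of factors. Each stretch holds the 250 bases before a RefSeq transcript start (GRCm38.p6), written 5′ to 3′ on the gene's own strand, with motif matches in capitals. H2-K1 and H2-D1 encode the classical heavy chains. B2m encodes their light chain, and the stretch before Tap1 also lies before Psmb9 on the other strand. H2-T23, a non-classical heavy chain gene whose values went the other way in knockout-labelled 2, is shown for contrast. The regions are chr17:34000334-34000583 on the minus strand for H2-K1, chr17:35262844-35263093 on the plus strand for H2-D1 and chr2:122147437-122147686 on the plus strand for B2m. Those of Tap1 and H2-T23 are chr17:34187306-34187555 on the plus strand and chr17:36032702-36032951 on the minus strand.
H2-K1: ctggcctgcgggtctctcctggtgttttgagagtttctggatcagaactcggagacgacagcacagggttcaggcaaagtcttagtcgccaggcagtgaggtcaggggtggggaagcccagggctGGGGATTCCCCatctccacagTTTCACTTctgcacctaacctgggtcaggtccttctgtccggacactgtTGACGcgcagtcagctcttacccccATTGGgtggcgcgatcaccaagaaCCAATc
H2-D1: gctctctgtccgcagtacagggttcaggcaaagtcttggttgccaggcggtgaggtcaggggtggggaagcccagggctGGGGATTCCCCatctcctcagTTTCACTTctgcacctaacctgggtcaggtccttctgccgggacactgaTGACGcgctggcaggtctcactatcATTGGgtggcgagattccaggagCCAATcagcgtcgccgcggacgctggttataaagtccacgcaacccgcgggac
B2m: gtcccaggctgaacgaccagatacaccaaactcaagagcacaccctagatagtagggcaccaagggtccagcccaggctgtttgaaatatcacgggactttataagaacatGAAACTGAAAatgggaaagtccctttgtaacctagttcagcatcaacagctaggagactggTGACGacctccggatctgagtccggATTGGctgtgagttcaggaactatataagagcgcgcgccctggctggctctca
Tap1: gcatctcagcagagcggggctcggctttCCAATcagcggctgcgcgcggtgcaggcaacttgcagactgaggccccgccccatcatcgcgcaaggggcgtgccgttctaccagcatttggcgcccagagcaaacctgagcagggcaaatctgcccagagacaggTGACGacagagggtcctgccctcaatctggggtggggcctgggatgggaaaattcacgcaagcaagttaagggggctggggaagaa
H2-T23: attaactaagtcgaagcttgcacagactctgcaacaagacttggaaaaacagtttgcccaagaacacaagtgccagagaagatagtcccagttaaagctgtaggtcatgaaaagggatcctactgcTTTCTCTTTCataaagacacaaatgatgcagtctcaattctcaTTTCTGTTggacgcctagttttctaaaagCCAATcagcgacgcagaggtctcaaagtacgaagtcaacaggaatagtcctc

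The letters searched, on both strands of windows of 250 bases before and 50 bases from the start, were GAAANNGAAA for the core of the interferon-stimulated response element, AANNGAAA for the IRF core, TTCNNNGAA for the gamma-activated site, CCAAT for the box bound by NF-Y, and TGACG for the core bound by CREB and ATF factors. GGGGANTCCCC, a run of the kind NF-kB binds, was added after the sequences were read. RefSeq windows matched 8 of the 10 genes; Tap2 and Nlrc5 did not match. The CCAAT box lay in 6 of these 8 (37.4% of all 32851 windows hold it) and TGACG in 5 of 8 (20.8% of all windows). The IRF core lay in H2-K1, H2-D1 and B2m (23.9% of all windows), the longer interferon element in B2m, where it overlaps the IRF core (3.44%), and the gamma-activated site in Psmb8 (8.30%). The NF-kB-type run lay in both heavy chain genes, and in 16 windows, 0.0487%, of all. Psmb10 held none of the motifs. H2-K1 and H2-D1 matched in 229 of 253 aligned bases, 90.5%, where an alignment with gaps of H2-K1 against the unrelated B2m gave 77.1%, so their shared motifs are 1 shared sequence rather than independent matches. The windows of Tap1 and Psmb9 overlap by 275 bases, so that pair too shares its letters. These are letter matches and show no binding.

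**Figure D1:**
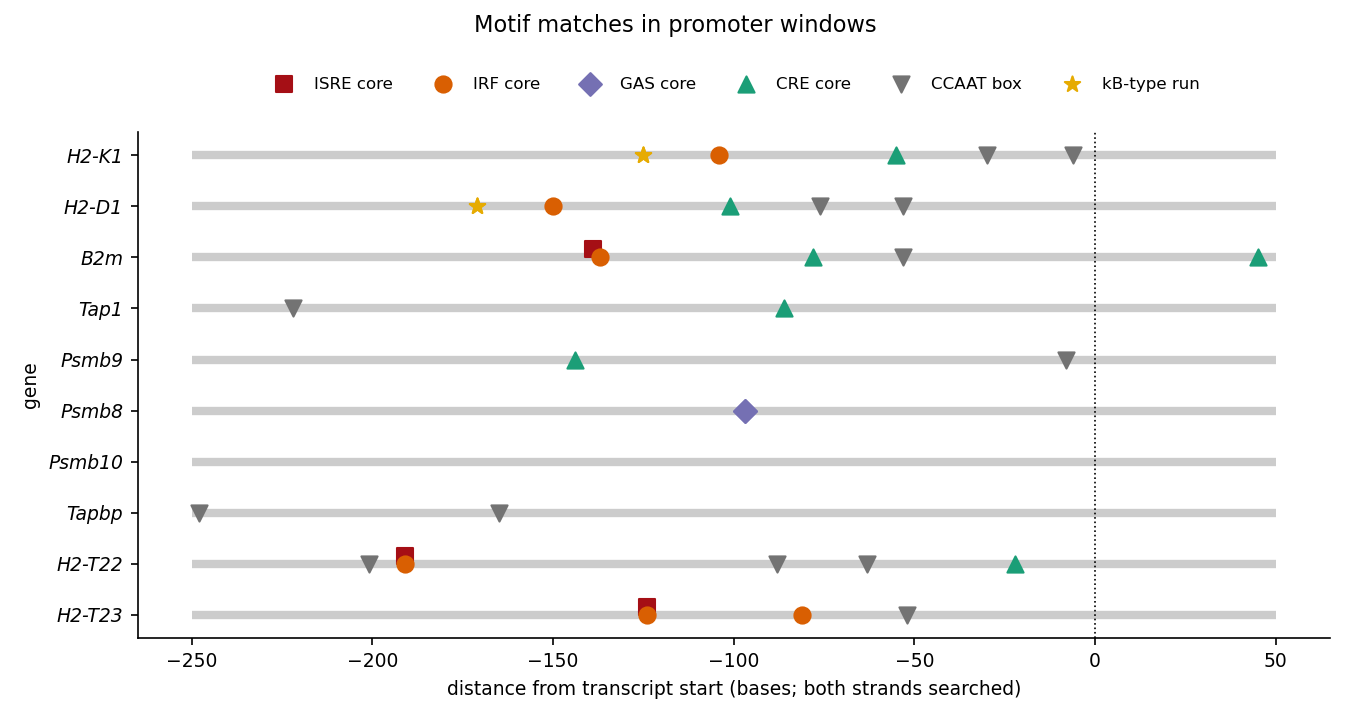
Motif matches in the RefSeq windows of 8 class I presentation genes and of the non-classical genes H2-T22 and H2-T23, each drawn from 250 bases before to 50 bases after the transcript start (horizontal axis, bases; dotted line, start); a symbol marks the first base of a match on the gene's strand. H2-K1 and H2-D1 carry the same order of NF-kB-type run, IRF core, TGACG and 2 CCAAT boxes, shifted against each other, while Psmb10 has no match.

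The classical heavy chains and their light chain gave opposite readings in the 2 knockout-labelled libraries. H2-K1 (ENSMUSG00000061232, chromosome 17, 33996017 to 34000347, minus strand, mm10), a classical heavy chain, stood at 26.4 and 181 FPKM in knockout-labelled libraries, against 52.8 and 48.4 FPKM in wild type. Knockout-labelled 1 lay below both wild-type libraries and knockout-labelled 2 above both, 6.86-fold above its own replicate. H2-K1 averaged 104 ± 109 FPKM in knockout-labelled cells and 50.6 ± 3.12 FPKM in wild type (SD, n = 2 each). Its log2 difference, knockout-labelled minus wild type, was 0.45 (SE 0.97, limma adjusted p = 0.824), so it did not pass the test.

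H2-D1 (ENSMUSG00000073411, chromosome 17, 35262730 to 35267499, plus strand), the other classical heavy chain, had 143 and 554 FPKM in knockout-labelled libraries, against 195 and 194 FPKM in wild type. The same split appeared as for H2-K1, with wild-type values nearly equal. Its log2 difference was 0.53 (SE 0.70, limma adjusted p = 0.711). B2m (chromosome 2, 122147686 to 122153083, plus strand), the light chain without which most heavy chains do not reach the surface, had 289 and 697 FPKM in knockout-labelled libraries, against 574 and 616 FPKM in wild type. Here knockout-labelled 1 was the library that stood far off, at 0.486 of the wild-type mean, while knockout-labelled 2 stood at 1.17 times it. The fitted difference was -0.40 on the log2 scale (SE 0.47, limma adjusted p = 0.675).

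Heavy chains and light chain did not keep 1 ratio. The FPKM of H2-K1 and H2-D1 added together were 0.587 and 1.06 times that of B2m in knockout-labelled libraries, against 0.433 and 0.394 in wild type. Both knockout-labelled libraries lay above both wild-type ones, although the summed heavy chain level itself was 170 and 735 FPKM in knockout-labelled libraries, against 248 and 243 FPKM in wild type. H2-D1 was 5.43 and 3.06 times H2-K1 in knockout-labelled libraries, against 3.70 and 4.01 times in wild type, so this ratio was above wild type in knockout-labelled 1 and below it in knockout-labelled 2. The size of such ratios between genes depends on the gene lengths behind the FPKM, which are not given. Only their differences between libraries are read here. Of the 50-base stretches of their transcripts, 9.63% of those of H2-K1 and 12.8% of those of H2-D1 occur in another gene, mostly other class I genes; how reads matching several genes were counted is not given in the sources used here, so that part of their values is uncertain. Counting error alone left H2-D1 in knockout-labelled 1 between 135 and 152 FPKM (exact Poisson interval at 95%, counting error only), below the wild-type 1 interval of 183 to 209 FPKM.

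**Figure D2:**
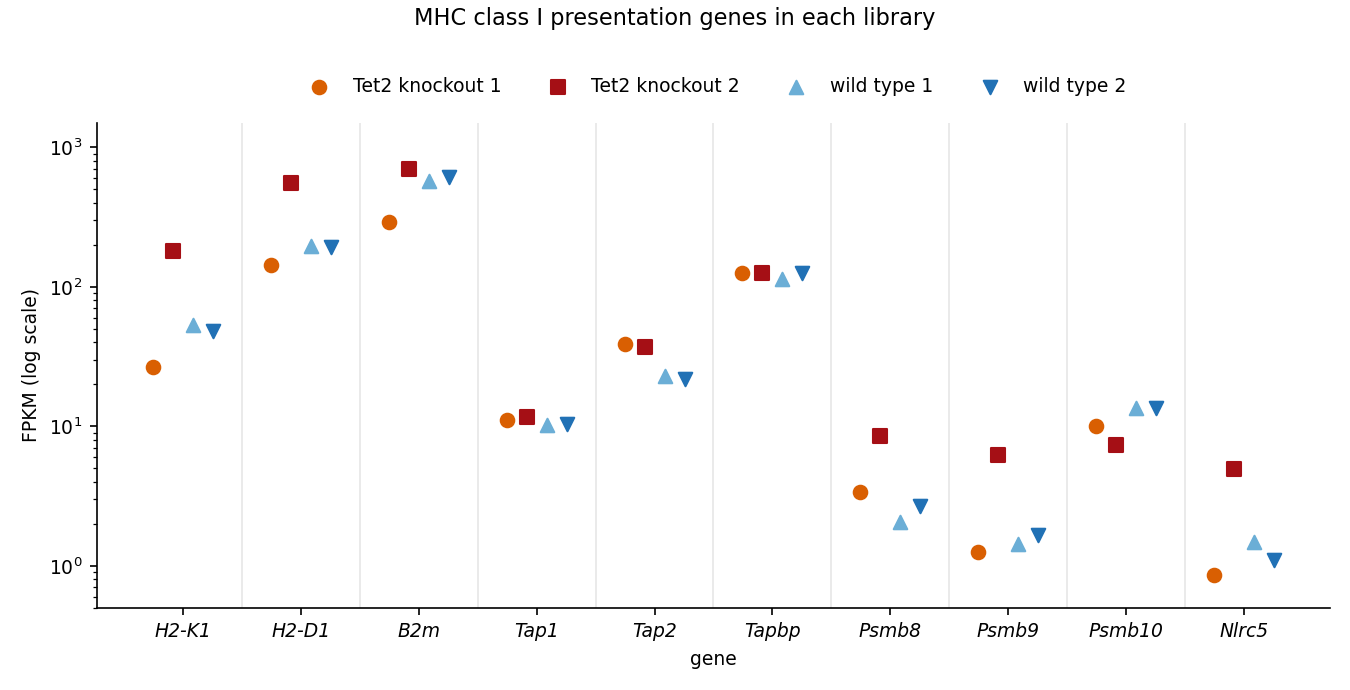
FPKM (vertical axis, log scale) of the 10 class I presentation genes in each library, with symbols for the 2 libraries labelled Tet2 knockout and the 2 wild-type libraries. For H2-K1 knockout-labelled 2 stands at 181 and knockout-labelled 1 at 26.4 FPKM around wild-type values of 52.8 and 48.4, whereas for Tap2 both knockout-labelled libraries (39.2 and 37.1) lie above both wild-type libraries.

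Among the peptide transport genes, Tap2 was the one whose groups stood clearly apart. Tap2 (chromosome 17, 34203527 to 34216321, plus strand), the second chain of the TAP transporter, had 39.2 and 37.1 FPKM in knockout-labelled libraries, against 23.1 and 21.8 FPKM in wild type. Knockout-labelled values were both higher, without overlap, and close to each other. On the log2 scale the gap was 0.74 (SE 0.12, limma adjusted p = 0.204), which did not pass the threshold over all genes. Of its 50-base stretches 11.6% occur in other genes, mostly the overlapping Gm15821.

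Tap1 (34187553 to 34197225), the partner chain, had 11.03 and 11.6 FPKM in knockout-labelled libraries, against 10.3 and 10.4 FPKM in wild type. Its log2 difference was 0.12 (SE 0.13, limma adjusted p = 0.657), and the counting intervals of all 4 libraries overlap. Tap2 was 3.55 and 3.19 times Tap1 in knockout-labelled libraries, against 2.25 and 2.10 times in wild type. The size of this ratio depends on gene lengths that are not given, so only its difference between libraries is read. Tapbp (33915899 to 33929292), which encodes tapasin, had 126 and 126 FPKM in knockout-labelled libraries, against 114 and 125 FPKM in wild type. That difference was 0.08 on the log2 scale (SE 0.12, limma adjusted p = 0.748), smaller than the spread within wild type; with libraries scaled by their median ratio the groups overlapped, and 23.2% of the Tapbp stretches are shared with overlapping or similar genes.

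Of the 3 immunoproteasome subunits, Psmb8 and Psmb9 were high in knockout-labelled 2 and Psmb10 was low in both knockout-labelled libraries. Psmb8 (34197721 to 34201454), the subunit that replaces Psmb5, had 3.39 and 8.47 FPKM in knockout-labelled libraries, against 2.05 and 2.68 FPKM in wild type. Both knockout-labelled libraries lay above both wild-type ones, but the counting interval of knockout-labelled 1, 2.68 to 4.24 FPKM on 78 reads, reaches that of wild type 2, 2.08 to 3.39 FPKM on 69 reads. The log2 difference was 0.95 (SE 0.43, limma adjusted p = 0.353), and 11.9% of its 50-base stretches occur in other genes, mostly the overlapping Gm20496. Psmb9 (34181987 to 34187764, minus strand), which replaces Psmb6, had 1.25 and 6.26 FPKM in knockout-labelled libraries, against 1.43 and 1.68 FPKM in wild type. Knockout-labelled 2 stood 4.03-fold above the wild-type mean, while knockout-labelled 1, on 22 reads, could not be told from wild type at this depth. Its log2 difference was 0.67 (SE 0.62, limma adjusted p = 0.607).

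Psmb10 (chromosome 8, 105935735 to 105938444, minus strand), which replaces Psmb7, had 10.04 and 7.38 FPKM in knockout-labelled libraries, against 13.5 and 13.6 FPKM in wild type. Of the 10 genes only Psmb10 was lower than wild type in each knockout-labelled library. Its log2 difference was -0.59 (SE 0.19, limma adjusted p = 0.265), and it shares no 50-base stretch with another gene.

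Set against the constitutive subunits they displace, the 3 gave different ratios. Psmb8 was 9.10% and 21.5% of Psmb5 in knockout-labelled libraries, against 4.07% and 4.86% in wild type. Psmb9 was 1.59% and 7.05% of Psmb6 in knockout-labelled libraries, against 1.27% and 1.58% in wild type, and Psmb10 was 24.4% and 16.0% of Psmb7, against 33.2% and 36.3%. Taken on log2(FPKM + 1), which shrinks ratios of low genes, the log2 ratios differed by 1.39, 1.05 and -0.75, knockout-labelled minus wild type. The groups did not overlap in any of the 3 pairs, and no share over other pairs of genes was counted. For Psmb9 over Psmb6, knockout-labelled 1 (1.589%) and wild type 2 (1.578%) were nearly equal, on 22 and 33 reads of Psmb9, so that gap cannot be read at this depth. The exact two-sided permutation test gave p = 0.333 for each pair, the smallest that 2 against 2 allows, and 0.333 after adjustment over the 3 pairs. Part of the first ratio lies in Psmb5 itself, at 37.3 and 39.4 FPKM in knockout-labelled libraries, against 50.4 and 55.0 FPKM in wild type (log2 difference -0.45, limma adjusted p = 0.246). The second ratio of knockout-labelled 1 lies in Psmb6, at 78.9 FPKM against 113 and 106 FPKM in wild type. Psmb9 itself was no higher there, at 1.25 FPKM against 1.43 and 1.68 FPKM.

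**Figure D3:**
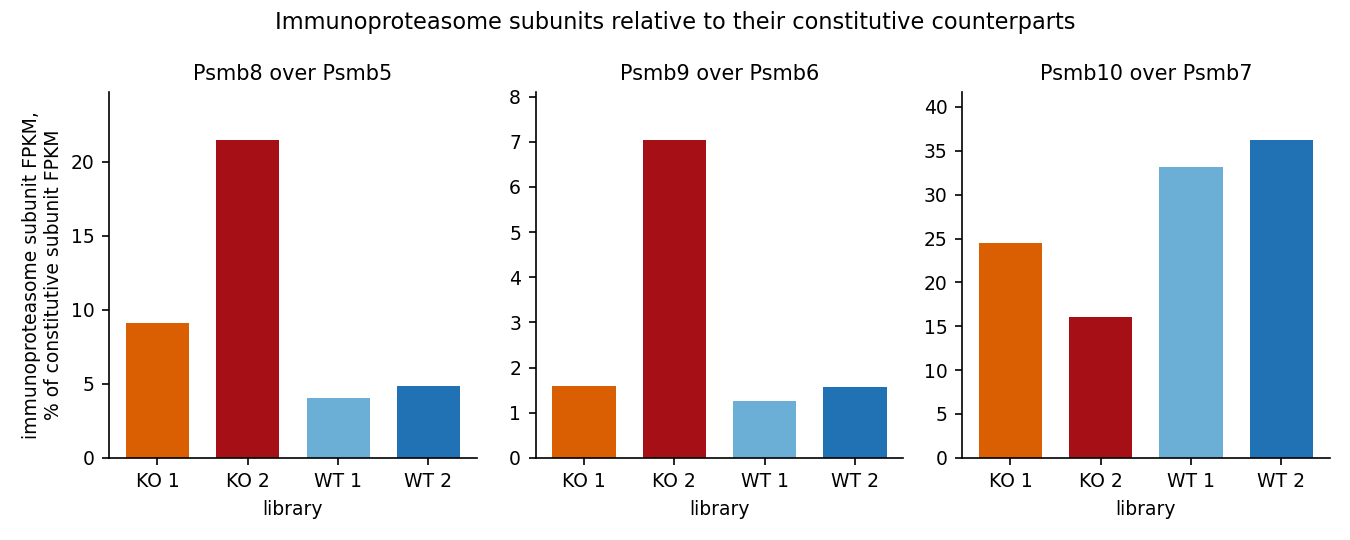
FPKM of each immunoproteasome subunit as a percent of its constitutive counterpart (vertical axis, from 0, scaled per panel), 1 bar per library, KO for libraries labelled Tet2 knockout and WT for wild type. KO 2 is highest for Psmb8 (21.5%) and Psmb9 (7.05%) and lowest for Psmb10 (16.0%).

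Nlrc5 (chromosome 8, 94434356 to 94527272, plus strand), the transactivator of class I genes, had 0.866 and 4.92 FPKM in knockout-labelled libraries, against 1.48 and 1.10 FPKM in wild type. It was the lowest of the 10 genes in wild type. Knockout-labelled 2 lay well above all other libraries, with 268 reads, while the interval of knockout-labelled 1, 0.603 to 1.20 FPKM on 35 reads, overlaps those of wild type. The log2 difference was 0.54 (SE 0.62, limma adjusted p = 0.674). Class II's counterpart Ciita was between 0.0120 and 0.0268 FPKM in knockout-labelled libraries and 0.0321 and 0.0566 FPKM in wild type, under the filter and not tested.

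Of the 10 genes 0 passed limma's threshold of 0.05 after adjustment, beside 2 of all 12344 genes, 0.0162%. At an unadjusted p under 0.05 there were 2 of the 10, Tap2 higher and Psmb10 lower, beside 17.1% of all genes tested. Both knockout-labelled libraries were above both wild-type ones for 4 of the 10, Tap1, Tap2, Tapbp and Psmb8, beside 29.4% of all genes (3 with median-ratio scaling, without Tapbp), and below both for Psmb10, 1 of 10, beside 24.8%. The split, with knockout-labelled 1 below and knockout-labelled 2 above both wild-type libraries, held for 5 of 10, H2-K1, H2-D1, B2m, Psmb9 and Nlrc5, beside 13.3% of all genes. For Psmb9 and Nlrc5 the counting intervals of knockout-labelled 1, on 22 and 35 reads, overlap those of wild type, so their lower side cannot be read at this depth. A level 2-fold or more over each wild-type library, on log2(FPKM + 1), was reached in knockout-labelled 2 by 5 of 10, beside 5.14% of all genes, and in knockout-labelled 1 by 0 of 10, beside 3%. The median log2 difference from the wild-type mean over the 10 was -0.23 in knockout-labelled 1 and 1.04 in knockout-labelled 2, where that of all genes was 0.03 in both; in the pooled fit it was 0.49, and 0.12 over the 7 genes that a minimum mean of 5 FPKM keeps. The result hangs on which knockout-labelled library is read: without knockout-labelled 1, 8 of the 10 passed limma's adjusted threshold, beside 60.1% of all genes, and the median was 1.04. Without knockout-labelled 2, 5 of the 10 passed, beside 46.5% of all genes, and the median was -0.23. Neither share was tested against that of all genes. Tap2 and Psmb10 passed in the same direction in both cases, H2-K1, H2-D1 and B2m passed in opposite directions, and the 5 genes of the split had opposite signs. In these fits the lone library was assumed to vary like wild type.

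**Figure D4:**
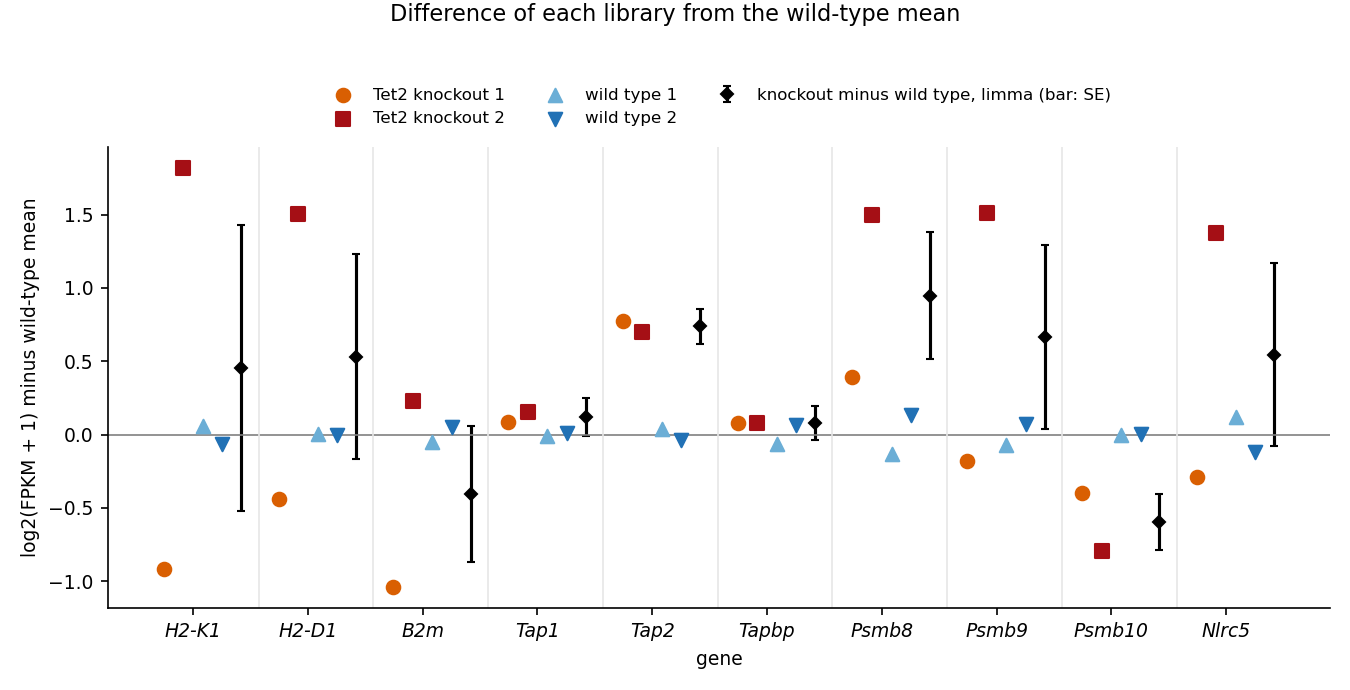
Difference of each library from the wild-type mean on log2(FPKM + 1) for the 10 genes, with the limma difference, knockout-labelled minus wild type, as a black diamond with its standard error. The bars of H2-K1 (0.97), H2-D1 (0.70), Psmb9 (0.62) and Nlrc5 (0.62) are long because the 2 knockout-labelled libraries lie apart, while that of Tap2 (0.12) is short.

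Within wild type the levels ran from B2m at 595 ± 29.6 FPKM (SD, n = 2) through H2-D1 at 195, Tapbp at 119, H2-K1 at 50.6, Tap2 at 22.5, Psmb10 at 13.5, Tap1 at 10.3 and Psmb8 at 2.36 to Psmb9 at 1.55 and Nlrc5 at 1.29 FPKM. Only the last pair overlapped between libraries; every other neighbour in this order was separated. In knockout-labelled 1 B2m again led and Tap2 stood above H2-K1, whereas in knockout-labelled 2 H2-K1 stood above Tapbp. B2m was the 281st and 66th most abundant gene tested in knockout-labelled 1 and 2, and the 109th in wild type.

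Several non-classical class I genes of the same region were low in both knockout-labelled libraries, although none passed the test. Of 20 genes fixed for non-classical and class I-like molecules, 10 were tested, 0 passed the adjusted threshold, 2 had both knockout-labelled values above wild type (29.4% of all genes do) and 5 had both below (24.8%), and 3 were lower at an unadjusted p under 0.05 (17.1% of all genes in either direction). H2-T22, a non-classical heavy chain, had 2.55 and 1.82 FPKM in knockout-labelled libraries, against 14.7 and 13.8 FPKM in wild type. Its values did not overlap, and its log2 difference was -2.27 (SE 0.19, limma adjusted p = 0.125). H2-T23, which encodes the Qa-1 molecule seen by natural killer receptors, had 5.50 and 2.82 FPKM in knockout-labelled libraries, against 13.6 and 12.4 FPKM in wild type (log2 difference -1.49, limma adjusted p = 0.229). H2-M9 was 0.402 and 0.0427 FPKM in knockout-labelled libraries, against 2.71 and 4.15 FPKM in wild type (limma adjusted p = 0.204). All 3 were lower in each knockout-labelled library, so knockout-labelled 2 held more of the classical and less of these heavy chain transcripts than wild type. H2-M3, which presents formylated peptides, had 11.9 and 19.6 FPKM in knockout-labelled libraries, against 10.7 and 8.41 FPKM in wild type. H2-Q4, chosen after its values were seen, followed the split at 0.834 and 7.67 FPKM in knockout-labelled libraries, against 1.22 and 1.90 FPKM in wild type.

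The neighbourhood of these genes as a whole stood near the wild-type mean. Between 33915899 and 37483552 on chromosome 17, 97 genes were tested, with median log2 differences of 0.03 in knockout-labelled 1 and 0.04 in knockout-labelled 2. Without the class I presentation genes and the listed non-classical genes, 4 of 82 were at least 1 log2 unit above the wild-type mean in knockout-labelled 2 and 3 of 82 in knockout-labelled 1. Falls were not counted, nor was the share of all genes at this level. These 82 still hold H2-M1 and H2-T-ps, class I sequences outside the list. Some of the 82, chosen after their values were seen, stood far off in both knockout-labelled libraries. The log2 differences in knockout-labelled 1 and 2 were -3.74 and -2.67 for C2, -2.07 and -2.74 for H2-M1, and -1.67 and 3.71 for Cdsn. The 7 genes on chromosome 17, the 2 on chromosome 8 and B2m on chromosome 2 lie on 3 chromosomes whose own medians ran from 0.08 to 0.15 in knockout-labelled 1 and from 0.10 to 0.18 in knockout-labelled 2.

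**Figure D5:**
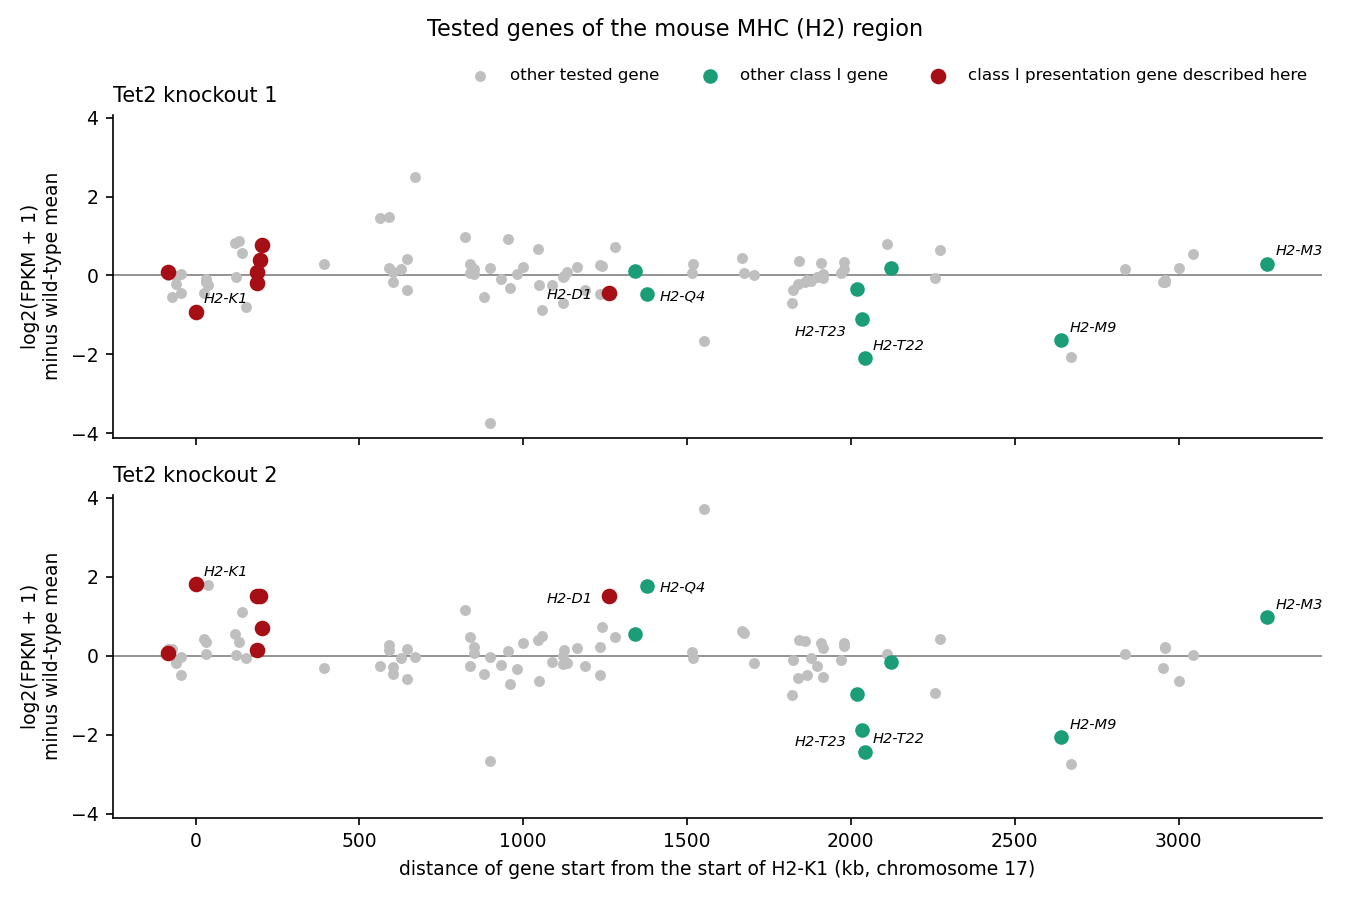
Difference from the wild-type mean on log2(FPKM + 1) for the 97 tested genes of the mouse MHC region, against the distance of each gene's start from that of H2-K1 (kb, chromosome 17), in the libraries labelled Tet2 knockout 1 (above) and 2 (below). H2-K1 and H2-D1 are below 0 in the upper panel and above 1 in the lower one, while H2-T22, H2-T23 and H2-M9 are below -1 in both.

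Of 18 tested partners in peptide supply, among them chaperones, trimming enzymes and translocon genes, 0 passed the adjusted threshold. Of these, 7 lay above both wild-type libraries (29.4% of all genes do) and 7 below both (24.8%), and the median log2 difference was -0.02. Hspa5, the chaperone BiP, had 1179 and 1188 FPKM in knockout-labelled libraries, against 652 and 668 FPKM in wild type (log2 difference 0.84, limma adjusted p = 0.204). Psme2, a subunit of the PA28 activator, had 99.8 and 91.1 FPKM in knockout-labelled libraries, against 144 and 130 FPKM in wild type (log2 difference -0.52, limma adjusted p = 0.234). Neither overlapped between groups, nor did Psme1, the partner of Psme2, with 35.4 and 47.3 FPKM in knockout-labelled libraries, against 59.5 and 50.4 FPKM in wild type (limma adjusted p = 0.370). The peptide trimmer Erap1 stood at 13.1 and 11.3 FPKM in knockout-labelled libraries, against 14.4 and 16.5 FPKM in wild type (limma adjusted p = 0.375). The chaperone Calr, at 1189 and 832 FPKM in knockout-labelled libraries, against 944 and 960 FPKM in wild type, and Pdia3, with a limma adjusted p of 0.938, overlapped between groups. Of 19 constitutive proteasome genes, 0 passed, 2 lay above both wild-type libraries (29.4% of all genes do) and 7 below both (24.8%). Psmb6 had 78.9 and 88.8 FPKM in knockout-labelled libraries, against 113 and 106 FPKM in wild type (limma adjusted p = 0.273), and Psmb7 had 41.1 and 46.0 FPKM, against 40.7 and 37.4 FPKM (limma adjusted p = 0.569).

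Among 11 tested regulators of class I promoters, 0 passed the adjusted threshold, 3 lay above both wild-type libraries (29.4% of all genes do) and 3 below both (24.8%). Nfya, a subunit of the factor that binds CCAAT, had 41.5 and 40.8 FPKM in knockout-labelled libraries, against 26.6 and 26.5 FPKM in wild type (log2 difference 0.61, limma adjusted p = 0.211). Creb1, which binds the TGACG core, had 31.5 and 42.8 FPKM in knockout-labelled libraries, against 22.2 and 25.6 FPKM in wild type (limma adjusted p = 0.274). Both lay above wild type in both libraries, where Irf1, the interferon-induced activator of class I promoters, lay below, at 25.5 and 13.3 FPKM in knockout-labelled libraries, against 34.0 and 32.5 FPKM in wild type (limma adjusted p = 0.326). The RFX complex, which binds class I and class II promoters, was little apart between groups. Its subunit Rfx5 had 7.83 and 5.39 FPKM in knockout-labelled libraries, against 5.27 and 5.61 FPKM in wild type (limma adjusted p = 0.625), and the limma adjusted p-values of Rfxap, Rfxank and the IRF family member Irf2 were 0.567, 0.916 and 0.864.

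Of 16 interferon signalling genes tested, 0 passed the adjusted threshold. Both knockout-labelled libraries lay above wild type for 3 (29.4% of all genes do) and below it for 7 (24.8%), and 4 were lower at an unadjusted p under 0.05 (17.1% of all genes in either direction). Socs3, an inhibitor of cytokine signalling, had 11.98 and 14.3 FPKM in knockout-labelled libraries, against 40.4 and 40.4 FPKM in wild type (log2 difference -1.55, SE 0.14, limma adjusted p = 0.145). Usp18, an interferon-induced brake on the receptor, had 1.07 and 1.38 FPKM in knockout-labelled libraries, against 5.48 and 6.67 FPKM in wild type (limma adjusted p = 0.156). Irf7, an interferon-induced activator, had 1.51 and 1.87 FPKM in knockout-labelled libraries, against 4.65 and 4.28 FPKM in wild type (limma adjusted p = 0.211). None of the 3 overlapped between groups. Socs1 and Jak2, chosen after their values were seen, were instead high in knockout-labelled 2. Socs1, another inhibitor of cytokine signalling, had 1.76 and 9.03 FPKM in knockout-labelled libraries, against 3.17 and 3.32 FPKM in wild type, the split of H2-K1. The receptor kinase Jak2 had 30.5 and 62.4 FPKM in knockout-labelled libraries, against 23.01 and 23.23 FPKM in wild type (limma adjusted p = 0.329). The interferon gamma receptor chain Ifngr1 had 95.8 and 133 FPKM in knockout-labelled libraries, against 113 and 108 FPKM in wild type (limma adjusted p = 0.949). The type I receptor chain Ifnar1 had 29.9 and 38.5 FPKM in knockout-labelled libraries, against 25.9 and 27.3 FPKM in wild type (limma adjusted p = 0.380). The limma adjusted p-values of their partner chains Ifngr2 and Ifnar2 were 0.903 and 0.503. Interferon genes Ifnb1 and Ifng were listed at 0 in all 4 libraries.

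Leukocytes also carry class I genes, and their markers were measured in the same libraries. In bulk RNA fewer cells of a type and less RNA per cell cannot be told apart. The 14 leukocyte and macrophage markers summed to 94.6 and 153 FPKM in knockout-labelled libraries, against 123 and 121 FPKM in wild type. The sum was lowest in knockout-labelled 1 and highest in knockout-labelled 2. The 10 class I genes summed to 650 and 1634 FPKM in knockout-labelled libraries, against 988 and 1034 FPKM in wild type. Lyz2 was the largest term of the marker sum, at 36.9 and 66.7 FPKM in knockout-labelled libraries, against 65.9 and 63.0 FPKM in wild type. The median log2 difference from the wild-type mean over the tested markers was 0.16 in knockout-labelled 1 and 0.57 in knockout-labelled 2. Over the 10 class I genes it was -0.23 and 1.04. Of the 12 tested markers, 0 passed the adjusted threshold, 5 lay above both wild-type libraries (29.4% of all genes do), 1 lay below both (24.8%) and 2, Lyz2 and Fcer1g, showed the split of H2-K1 (13.3%). Ptprc, the pan-leukocyte marker CD45, was 1.32 and 1.89 FPKM in knockout-labelled libraries, against 0.988 and 1.12 FPKM in wild type. Mrc1, a macrophage mannose receptor, was 1.12 and 3.99 FPKM in knockout-labelled libraries, against 0.772 and 0.680 FPKM in wild type (limma adjusted p = 0.396). Fcer1g, a signalling chain of Fc receptors chosen after its values were seen, was 5.73 and 12.8 FPKM in knockout-labelled libraries, against 5.88 and 6.68 FPKM in wild type. All 3 were highest in knockout-labelled 2, whereas Cd68, a macrophage lysosomal marker, was below wild type in both, at 8.37 and 9.32 FPKM in knockout-labelled libraries, against 12.7 and 10.8 FPKM in wild type. The 10 lymphocyte markers summed to 0.321 and 0.411 FPKM in knockout-labelled libraries, against 0.679 and 0.499 FPKM in wild type, with Cd3e at 0 in all. Class II chains, which mark professional antigen-presenting cells, were near 0. H2-Aa was 0 and 0.172 FPKM in knockout-labelled libraries and 0 in both wild-type libraries. H2-Ab1 was 0 and 0.0597 FPKM against 0, and Cd74 was 0.143 and 0.673 FPKM against 0.299 and 0.425 FPKM. Of 5 class II genes tested, 0 passed, 2 lay above both wild-type libraries (29.4% of all genes do) and 0 below both (24.8%). H2-DMa was 7.96 and 6.42 FPKM in knockout-labelled libraries, against 3.95 and 4.19 FPKM in wild type. H2-DMb2 was 1.17 and 2.17 FPKM, against 0.458 and 0.468 FPKM, while H2-DMb1 overlapped, at 2.77 and 5.32 FPKM against 6.52 and 4.72 FPKM. The part of these cells in the class I values was not tested.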

How the data were processed

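Expression was measured by RNA sequencing in 2 Tet2-/- and 2 wild-type libraries, grouped by the sample titles. The authors deposited 1 table of FPKM, per gene and library. Per the submitters' processing notes, reads were handled with Bowtie2 2.2.3, TopHat2 2.0.12 and HTSeq 0.6.1 on mm10; read length, strand and gene lengths are not given in the sources used here. FPKM are relative to a library's total, so abundant genes that differ move the rest. Ratios and orders of level between genes also depend on the gene lengths used, and hold only for those lengths. Gene names and coordinates came from GENCODE M21, which holds 40456 of the 41029 identifiers. The totals of reads, and whole reads for all 25309 genes above 0 (to within 1e-06 of a read), were worked out from the FPKM; where a gene's reads share a factor they are lower bounds, and they served only for depth, Poisson intervals and 1 alternative.

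The groups were compared with limma 3.58.1 (R 4.3.3). It was fitted to log2(FPKM + 1) of the 12344 genes averaging 1 FPKM or more over the 4 libraries, with its trend option; p-values are two-sided and adjusted by Benjamini and Hochberg's method over all 12344. Log2 differences understate changes of low genes; folds are ratios of FPKM. The script was tested on simulated data. The 10 genes and the lists were chosen with earlier results of these data known. Genes were named mostly by rule: the 10 genes, Tet2, a set of pathway genes, and up to 4 genes of each list past the threshold or the 3 with the smallest p. Sec61b, Psma3 and Tyrobp met this rule but are not described. Genes marked as chosen after their values were seen fall outside it, as do others such as Col1a1, Lepr and Lyz2. Promoters came from RefSeq (GRCm38.p6), proteins were not used here. Alternatives were another pseudocount, filters, scalings, a variance model, a replicate block, leaving out each library, and voom on the recovered reads.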

Additional observations from a re-analysis of the deposited data

How the results depend on the processing

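With all 4 libraries, no alternative put any of the 10 genes past the threshold or turned a direction; the smallest adjusted p among them ran from 0.195 to 0.452. The count of all genes past it was 2 by the fit used, 1 with a pseudocount of 0.1, and 0 with voom on recovered reads (2045 at an unadjusted p under 0.05). Replicate numbers did not pair the libraries (correlation of deviations 0.0061); with a replicate block 0 genes passed (1328 at an unadjusted p under 0.05), and no call among the 10 differed. A minimum mean of 5 FPKM left 7 of the 10, with a median of 0.12 in place of 0.49 and 3 in place of 4 above wild type; median-ratio scaling also left 3, without Tapbp.

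The values hang on which knockout-labelled library is kept; the lone one is then assumed to vary like wild type. Leaving out 1 library in turn gave 0 to 7415 genes past the threshold, 0 to 8 of the 10 genes past it (8 without knockout-labelled 1, beside 60.1% of all genes, and 5 without knockout-labelled 2, beside 46.5%), 4 to 9 above and 1 to 6 below wild type, and a median of -0.23 to 1.04. The log2 difference ranged, for each gene, as follows: H2-K1 -0.91 to 1.82, H2-D1 -0.44 to 1.50, B2m -1.04 to 0.23, Tap1 0.09 to 0.15, Tap2 0.70 to 0.78, Tapbp 0.01 to 0.14, Psmb8 0.39 to 1.50, Psmb9 -0.18 to 1.51, Psmb10 -0.79 to -0.40, Nlrc5 -0.29 to 1.38. The reversals were H2-K1 (-0.91), H2-D1 (-0.44), Psmb9 (-0.18) and Nlrc5 (-0.29) without knockout-labelled 2, and B2m (0.23) without knockout-labelled 1. With 1 library left out, the shares of all genes above and below wild type were not counted. The 9 above and 6 below, each from 1 knockout-labelled library, therefore have no baseline. The shares of 29.4% and 24.8% hold for 2 knockout-labelled libraries. Depth limits Psmb8, Psmb9 and Nlrc5 most, with 16 to 78 reads outside knockout-labelled 2.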

Other observations

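Ligands and brakes that decide how natural killer and T cells read a class I-bearing cell were also measured. Of 13 such genes, 10 were tested, 0 passed limma's adjusted threshold, 3 had both knockout-labelled values above wild type (29.4% of all genes do) and 2 had both below (24.8%). Ulbp1, a ligand of the activating receptor NKG2D, had 49.0 and 25.9 FPKM in knockout-labelled libraries, against 17.07 and 17.02 FPKM in wild type (log2 difference 1.02, limma adjusted p = 0.272). Raet1d, another NKG2D ligand, had 2.43 and 3.89 FPKM in knockout-labelled libraries, against 1.18 and 0.709 FPKM in wild type (limma adjusted p = 0.243). Serpinb9, an inhibitor of granzyme B, had 17.5 and 11.3 FPKM in knockout-labelled libraries, against 26.1 and 26.7 FPKM in wild type (limma adjusted p = 0.246). Cd274, the checkpoint ligand PD-L1, was between 0.298 and 0.505 FPKM in knockout-labelled libraries and between 0.410 and 0.544 FPKM in wild type, under the filter and not tested.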
